A study of Mus musculus with 2 samples.

Results

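CD4+ T cells of the p21 mouse brain were examined in twitcher (twi) mice and WT littermates. The cells were selected on their measured transcripts: at least 1 *Cd4* UMI (a unique molecular identifier, 1 captured transcript), no *Cd8a* or *Cd8b1* UMI, at least 1 UMI of the CD3 genes *Cd3d*, *Cd3e* and *Cd3g*, and limits on B cell, microglial, neutrophil and cell cycle transcripts. These limits were fewer than 2 UMIs of *Cd79a* and *Cd79b*, fewer than 3 of the C1q genes, under 1% of UMIs from *S100a8* and *S100a9*, and fewer than 2 UMIs of *Mki67*, *Top2a* and *Birc5*. They held 111 of the 2478 cells with at most 15% mitochondrial UMIs, of which 42 of 1271 came from WT and 69 of 1207 from twi. The levels of the genes just listed chose the cells and are not findings.

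The twi mouse carries a loss-of-function mutation of *Galc*, the lysosomal galactosylceramidase, and is a model of globoid cell leukodystrophy, a demyelinating disease. CD45+ leukocytes were sorted from brains of untreated C57Bl/6 mice (C57BL/6J in the study's methods) at postnatal day 21. The genotypes were galc+/+ for WT and galc-/- for twi, and the cells were profiled by 10x Genomics single-cell RNA sequencing. Each genotype gave 1 library, made from a pool of 2 to 3 animals that cannot be told apart, so there is no replicate, no test between genotypes and no p value. The ranges in parentheses are exact 95% intervals (Clopper-Pearson for shares, Poisson or conditional binomial for levels and ratios) that cover counting error only, and differences between animals and between libraries lie outside them. For levels and their ratios each UMI is taken as a separate draw, so the spread between cells lies outside them too. Where a few cells hold most UMIs of a gene, these intervals are too narrow.

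The WT library held 1278 barcodes and 3749714 UMIs, and the twi library 1220 barcodes and 4807539 UMIs. The libraries shared 0 barcodes. The median CD4+ T cell had 2873.5 UMIs in WT (825 to 10375) and 2882 in twi (954 to 11077), so depth per cell was alike in these cells, and the summed counts were 127253 and 217442 UMIs. *Galc* itself had no UMI in the CD4+ T cells of either library, and a transcript count does not read the sequence of the gene.

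CD4+ T cells recognize peptides on MHC class II and act mainly through secreted cytokines and through surface ligands such as CD40 ligand. A naive cell carries the lymph node homing receptor CCR7 and the transcription factors TCF-1 (*Tcf7*) and LEF-1. After antigen contact it loses these and takes a helper, regulatory or, less often, cytotoxic program.

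*Cd4* is captured poorly, and the selection rests on very few transcripts. Of the selected cells, 32 in WT and 50 in twi had exactly 1 *Cd4* UMI, 7 and 12 had 2, and 3 and 7 had more. Just outside the rule were 136 WT and 278 twi cells with CD3 transcripts but neither *Cd4* nor *Cd8* UMIs, with median depths of 2472 and 3125.5 UMIs, and the limit on cell cycle transcripts took out 7 WT and 4 twi cells with *Cd4*. Stray *Cd4* was rare: it was seen in 2 of 555 WT B cells (0.360%, 0.0437 to 1.30) and 0 of 149 twi B cells (upper limit for a count of 0, here and below set at 3 cells of the total, 2.01%), at median depths of 2017 and 2202 UMIs. Among T cells with *Cd8* transcripts it was seen in 6 of 106 (5.66%) in WT and 15 of 414 (3.62%) in twi, against 42 of 178 (23.6%) and 69 of 347 (19.9%) of the T cells without *Cd8*. Some of the selected cells can therefore be CD8+ cells whose *Cd8* was missed, and how many was not tested.

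The label was checked on genes the selection did not use. *Cd40lg*, which encodes CD40 ligand, the signal of helper cells to B and myeloid cells, had 11 UMIs (86.4 CPM, the count scaled to the summed UMIs of the cell group, 43.2 to 155) in WT CD4+ T cells and 0 UMIs in WT CD8+ T cells. This was 10.3-fold over the floor, set here and for other groups at 0 to 3 UMIs over the group. A fold over the floor leaves out the counting error of the group with UMIs, so it is not a lower limit. In twi, *Cd40lg* had 21 UMIs in CD4+ (96.6 CPM, 59.8 to 148) and 10 in CD8+ T cells (5.86 CPM), a ratio of 16.5 (7.43 to 39.2). *Foxp3*, the factor of regulatory T cells, was 16.9-fold (2.05 to 776) and 15.7-fold (3.35 to 97.1) higher in CD4+ than in CD8+ T cells of WT and twi. *Icos*, a costimulatory receptor, had ratios of 1.55 (0.669 to 3.38) in WT and 4.06 (2.52 to 6.42) in twi. *Igfbp4*, an IGF-binding protein gene used as a mark of naive CD4+ T cells, had ratios of 4.25 (2.87 to 6.34) and 4.15 (2.72 to 6.22). The markers thus pointed to CD4+ T cells in both libraries, with *Icos* unclear in WT. The T cell receptor constant genes were not analysed here.

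The same comparison with CD8+ T cells, selected by the mirrored rule (100 cells in WT, 399 in twi), placed CD4+ T cells within the T cells of each brain. A gene was counted when the ratio was at least 2-fold in both libraries, with 0.5 UMI added and at least 20 UMIs over both cell groups in each library. Of 2774 genes, 27 (0.973%) were higher and 28 (1.01%) lower in CD4+ T cells of both; together these 55 of 2774 became 16 of 1093 at a minimum of 50 UMIs and 97 of 2293 in cells with at least 2 *Cd4* UMIs. Within 1 library alone, 5.87% of 2775 genes were at least 2-fold higher and 5.37% lower in WT, and 7.68% of 6936 genes higher and 7.04% lower in twi. With *Igfbp4*, the 10 most separated genes on the CD4+ side were *Ass1*, of arginine synthesis (log2 ratio 2.96 in WT and 2.0 in twi), *Itga6*, an integrin chain (2.71 and 2.0), *Trib2*, a pseudokinase (2.14 and 2.59), and *Cd9*, *Faah*, *Cd55*, *Pecam1*, *Tspan32* and *Tesc*. On the CD8+ side were *Cd160*, the receptor genes *Klra7*, *Klrk1* and *Klrd1*, the granzyme *Gzma*, the granule protein gene *Nkg7*, the chemokine *Ccl3*, and *Ly6c2*, *Ms4a4c* and *Samd3*. In WT, the 18 cytotoxic and chemokine genes summed to 927 CPM in CD4+ and 6332 CPM in CD8+ T cells (ratio 0.146, 0.121 to 0.176). In twi the sums were 4925 and 11700 CPM (0.421, 0.396 to 0.448). A gene low in CD4+ T cells could reach the minimum only through CD8+ T cells, so the number past 2-fold is not read. *Nkg7* was at 55.0 CPM in WT CD4+ against 1115 CPM in WT CD8+ T cells (log2 -4.24), and at 455 against 2203 CPM in twi (-2.27). *Ccl5*, a chemokine of memory and effector T cells, had a log2 ratio of -5.96 in WT and -0.90 in twi. Of its 670 UMIs in twi CD4+ T cells, 265 were in 1 cell, so the twi value rests in part on that cell.

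**Figure D1:**
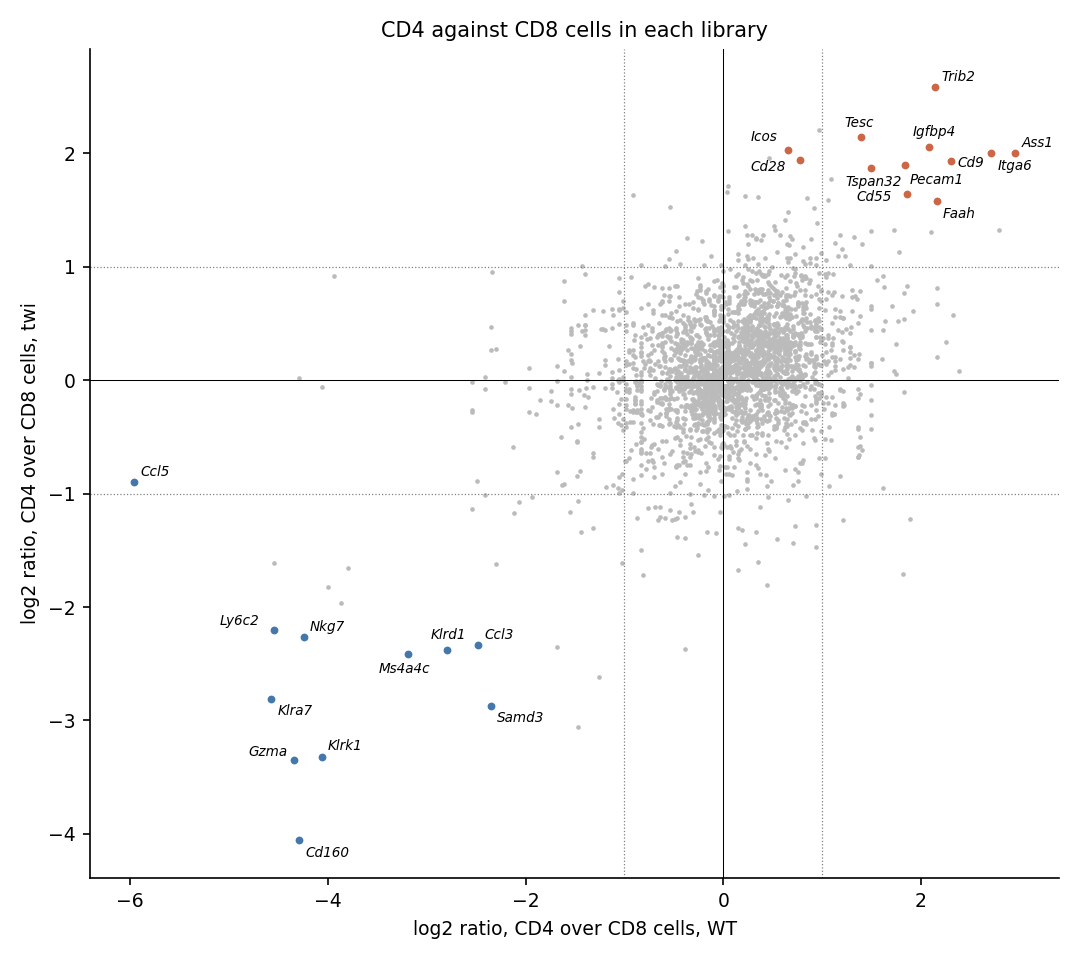
Each point is 1 of 2774 genes, with the log2 ratio of its summed level in CD4+ over CD8+ T cells in WT on the x axis and in twi on the y axis (0.5 UMI added); dotted lines mark 2-fold. *Trib2*, *Ass1* and *Itga6* lie at the upper right, *Cd160* and *Gzma* at the lower left, and *Ccl5* far to the left but near the 2-fold line for twi (-5.96 and -0.90).

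CD4+ T cells made up 3.30% (2.39 to 4.44) of WT cells and 5.72% (4.47 to 7.18) of twi cells, a ratio of 1.73 (1.16 to 2.60). The CD8+ T cell share was 7.87% in WT and 33.1% in twi (ratio 4.20, 3.37 to 5.29). Among T cells inside the same limits the CD4+ share was therefore smaller in twi, 9.07% (69 of 761) against 14.8% (42 of 284) in WT, and there were 17.3 CD4+ per 100 CD8+ T cells against 42, a ratio of 0.412 (0.259 to 0.660). A share of a sorted pool says nothing of absolute numbers: fewer cells of other kinds and more CD4+ T cells cannot be told apart.

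**Figure D2:**
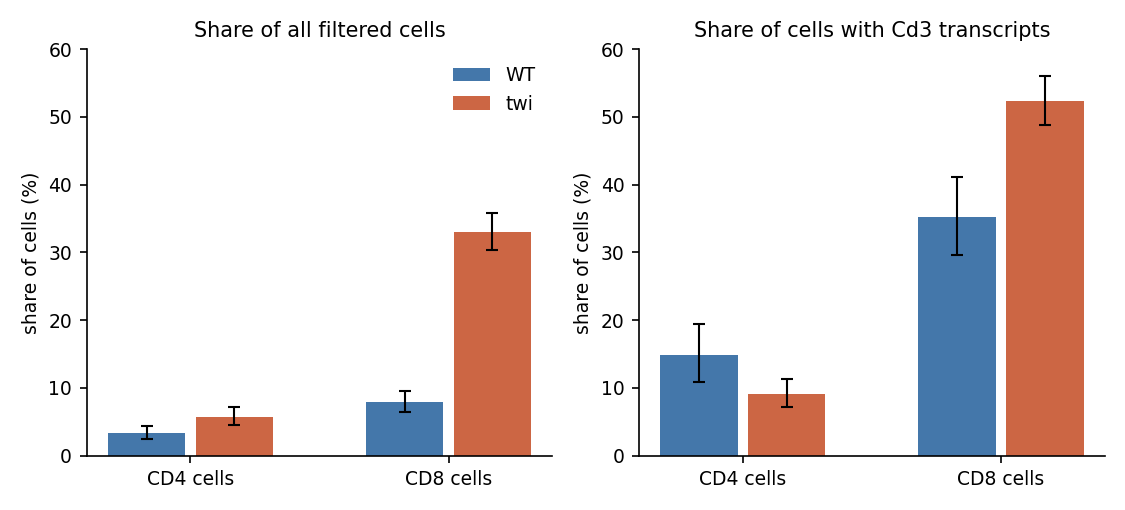
Bars give the share (%) of CD4+ and CD8+ T cells among all filtered cells (left) and among cells with CD3 transcripts inside the limits (right), for WT and twi, with exact 95% binomial intervals. The CD4+ bar is taller in twi on the left (5.72% against 3.30%) and shorter in twi on the right (9.07% against 14.8%).

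The sex of the animals differed between the pools. *Xist*, the noncoding RNA of the inactive X chromosome, had 0 UMIs in WT CD4+ T cells and 83 in twi. *Xist* without a Y-linked transcript was seen in 0 of 42 WT cells (which allows up to 7.14%, or 8.41% by the exact interval) and in 23 of 69 twi cells (33.3%), and Y-linked transcripts without *Xist* in 29 of 42 and 12 of 69 cells. The WT pool thus read as male and the twi pool as mixed, so sex and genotype cannot be told apart for the cells as a whole. Among cells with a Y-linked transcript and no *Xist*, the CD4+ share was 29 of 487 in WT and 12 of 207 in twi (ratio 0.974, 0.452 to 1.97), and the CD4+ to CD8+ ratio of twi over WT was 0.337. Detection of a Y-linked transcript itself differed, in 29 of 42 WT CD4+ T cells but 487 of all 1271 WT cells. This restriction therefore changes the WT share as well. The interval held both equal shares and the ratio of 1.73, and the part of sex in the share was not tested.

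Between twi and WT CD4+ T cells, 2245 of 27933 gene symbols had at least 20 UMIs over both libraries. Of these, 150 (6.68%) were at least 2-fold higher and 71 (3.16%) at least 2-fold lower in twi, around a median log2 ratio of 0.05. These 221 of 2245 genes became 129 of 901 in cells with a Y-linked transcript and no *Xist* and 41 of 366 in cells thinned before selection, where fewer genes reached the minimum. In CD8+ T cells the shares were 9.08% and 3.29% of 7015 genes. Gene lists were read against these values, by counts and medians and with no set test. A gene that is low in one library could reach the minimum only through the other, so counts and medians of the members past it are descriptions, and levels summed over every listed gene are given with them. Genes that encode the antigen receptor signal itself summed to 4762 CPM in WT and 5422 CPM in twi (ratio 1.14, 1.03 to 1.26). Of 16 members tested, 12 were higher and 4 lower, with a median log2 ratio of 0.27; 5 of the 16 had fewer than 20 UMIs in WT, and the other 11 were 7 higher and 4 lower, with a median of 0.09. Of the 16, only *Ptpn22*, a phosphatase that restrains the receptor, passed 2-fold (78.6 and 179 CPM, 10 UMIs in WT). *Lck*, the kinase bound to CD4, was at 566 CPM in WT and 722 CPM in twi (ratio 1.28, 0.960 to 1.71).

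Genes of naive and recirculating T cells were lower in twi, at a summed 8707 CPM in WT and 6567 CPM in twi (ratio 0.754, 0.697 to 0.817). Of 18 listed, 17 were tested, 15 of them lower and 2 higher, with a median log2 ratio of -0.73; 2 of the 17 had fewer than 20 UMIs in twi. The lower members included the homing receptor *Ccr7* and the transcription factors of the naive state. *Ccr7* was at 472 CPM (360 to 607) in WT and 308 CPM (239 to 391) in twi (ratio 0.654, 0.454 to 0.942). The transcription factors *Lef1* and *Tcf7* were at 747 and 566 CPM in WT and at 391 and 340 CPM in twi, with ratios of 0.524 (0.386 to 0.709) and 0.601 (0.429 to 0.844). *Igfbp4* fell furthest, from 534 CPM (415 to 677) to 175 CPM (124 to 240). Not all members moved so: *Il7r*, the receptor of the survival cytokine IL-7, was at 393 CPM in WT and 396 CPM in twi, and *Ms4a4b*, a membrane protein gene of T cells, at 1336 and 1729 CPM. At least 2-fold lower in CD4+ T cells were 5 of the 17 (29.4%, against 3.16% of all tested genes). In CD8+ T cells the list had a median of -1.21, with 12 of 18 members at least 2-fold lower (66.7%, against 3.29%). The CD4+ median was -0.35 in cells with a Y-linked transcript and no *Xist*, and -0.00149, over 8 genes, when cells were thinned to 1000 UMIs before selection.

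Cell by cell, 38 of 42 WT CD4+ T cells (90.5%, 77.4 to 97.3) carried at least 1 UMI of *Ccr7*, *Lef1* or *Igfbp4*, 3 genes put together after values were seen, and 43 of 69 twi cells (62.3%, 49.8 to 73.7), a ratio of 0.689 (0.435 to 1.10). After each cell was thinned to 1000 UMIs (1 WT cell and 2 twi cells were shallower and dropped), the shares were 33 of 41 (80.5%) and 30 of 67 (44.8%), a ratio of 0.556 (0.328 to 0.941). Both ratio intervals treat the numbers of cells as Poisson counts. They are too wide for shares this large and are not read against equal shares. Among B cells the share was 37.1% in WT and 38.9% in twi, and 14.4% and 14.1% had at least 2 such UMIs. Whether these UMIs came from the B cells or from free RNA was not tested.

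The 24 effector memory and tissue genes summed to 6185 CPM in WT and 12265 CPM in twi (ratio 1.98, 1.83 to 2.15), and to 6137 and 9184 CPM without *Ccl5*. Of 20 past the minimum 17 were higher, 8 at least 2-fold, with a median log2 ratio of 0.76, but 11 of the 20 had fewer than 20 UMIs in WT. The 9 with at least 20 UMIs in WT, a choice made after the values were seen, had a median of 0.16, with 7 higher and 2 lower. The median of the list was 0.29 in cells with at least 2 *Cd4* UMIs (11 higher, 5 lower) and 1.12 in cells with a Y-linked transcript and no *Xist*. *Itgb1*, the integrin beta chain of VLA-4, was at 70.7 CPM (32.3 to 134) in WT and 350 CPM (275 to 437) in twi (ratio 4.94, 2.47 to 11.2). *Id2*, a transcriptional inhibitor of effector cells, was at 196 and 699 CPM, a ratio of 3.56 (2.32 to 5.67). The chemokine receptors *Cxcr3* and *Cxcr6* were at 78.6 and 39.3 CPM in WT and at 235 and 170 CPM in twi, with ratios of 2.98 (1.5 to 6.59) and 4.33 (1.70 to 14.1). *Lgals1*, encoding galectin-1, and *S100a10* were among the abundant members, and their ratios were under 2-fold.

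Several of the largest ratios belonged to genes that killer cells also express. Of the 18 genes of the cytotoxic and chemokine list 8 reached 20 UMIs over both libraries, of which all but *Srgn* had fewer than 20 in WT, so their number and median are not read. The whole list summed to 927 CPM in WT, 69 of its 118 UMIs being *Srgn*, and to 4925 CPM in twi, 670 of its 1071 UMIs being *Ccl5*. *Ccl5*, which the effector memory list also holds, had 6 UMIs in WT (47.2 CPM, 17.3 to 103) and 670 in twi (3081 CPM, 2852 to 3324), a ratio of 65.4 (29.9 to 179). *Nkg7* had 7 UMIs in WT and 99 in twi (ratio 8.28, 3.87 to 21.1). *Xcl1*, a chemokine for cross-presenting dendritic cells, had 0 UMIs in WT and 22 in twi, all of them in 5 cells, 4.29-fold over the floor. *Ly6c2*, a surface antigen of memory T cells, had 4 UMIs in 1 WT cell and 106 in 24 twi cells. *Gzmb* had 1 UMI in WT and 21 in twi (4 of 69 cells).

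A small number of cells carried this signal. Of the 670 twi *Ccl5* UMIs, 265 were in 1 cell and 463 in 3 cells. Taking at least 4 *Ccl5* UMIs as a cut, set after the values were seen, 19 of 69 twi CD4+ T cells (27.5%, 17.5 to 39.6) and 0 of 42 WT cells (which allows up to 7.14%, or 8.41% by the exact interval) passed, and they held 654 of the UMIs. Close to the cut, 2 WT and 2 twi cells had 2 or 3 UMIs. *Ccl5* was also counted in B cells, of which 10.6% in WT and 26.2% in twi had a UMI and 3 of 555 (0.541%) and 1 of 149 (0.671%) had 4 or more; whether these UMIs came from free RNA or from doublets was not tested. In thinned cells, 1 of 41 WT and 15 of 67 twi CD4+ T cells had at least 2 *Ccl5* UMIs. Among CD8+ T cells, 24% in WT and 70.4% in twi passed the 4-UMI cut.

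The 19 cells are a range of a measured count, not a named type. *Nkg7* was seen in 15 of them and in 7 of the other 50 twi cells, *Cxcr6* in 14 and 5, *Ly6c2* in 13 and 11, *Id2* in 17 and 19, and *Ifng* in 6 and 4. *Foxp3* and *Igfbp4* had 0 UMIs in the 19 cells and were seen in 3 and 13 of the other 50. A count of 0 in 19 cells allows up to 17.6% by the exact interval. *Cd40lg*, near 0 in CD8+ T cells of this library, was seen in 7 of the 19 and 7 of the other 50. The 19 cells were also deeper, at a median of 3480 UMIs against 2770. Most of the 19 entered on a single transcript: 16 had exactly 1 *Cd4* UMI and 3 had more, against 34 and 16 of the other 50 twi cells (*Cd4* chose the cells, so nothing is read from these counts). All 22 *Xcl1* UMIs were in cells with 1 *Cd4* UMI, while 310 of the 670 *Ccl5* UMIs were in cells with at least 2, 265 of them in 1 cell. Naive transcripts and *Ccl5* overlapped in part: 8 of the 19 cells carried at least 1 UMI of the 3 naive genes and 11 did not, against 35 and 15 of the other 50 twi cells. With the 19 cells left out, the median log2 ratios were -0.33 for the naive list, 0.33 for the effector memory and tissue list and 0.29 for the interferon-stimulated list, and 117 of 1716 genes were past 2-fold. These cells were picked by a gene of the effector memory list and came from twi alone, so these values depend on that choice and are no separate result.

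**Figure D3:**
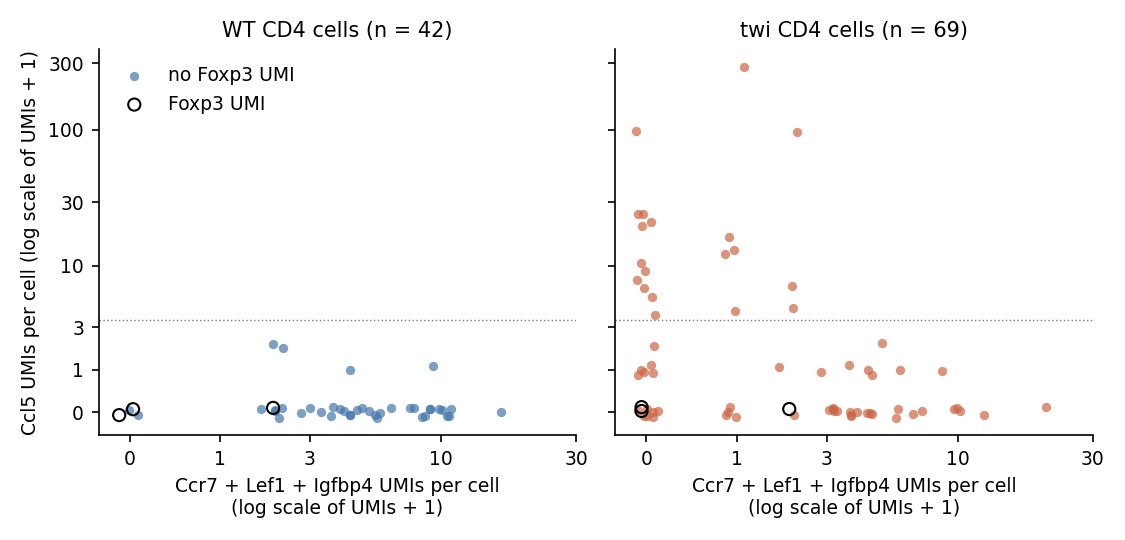
Each point is 1 CD4+ T cell of WT (left) or twi (right), with its summed UMIs of *Ccr7*, *Lef1* and *Igfbp4* on the x axis and its *Ccl5* UMIs on the y axis, both as log of UMIs + 1 with small random shifts; rings mark cells with a *Foxp3* UMI and the dotted line the 4-UMI cut. No WT point lies above the line, 19 of 69 twi points do, and all 6 ringed cells lie at 0 *Ccl5* UMIs.

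The 18 transcription factors that set helper programs summed to 597 CPM in WT and 1053 CPM in twi (ratio 1.76, 1.35 to 2.32). Of these, 6 reached the UMI minimum and 2 passed 2-fold, *Maf* and *Stat4*, with a median log2 ratio of 0.48; all 6 had fewer than 20 UMIs in WT. *Maf*, a factor of IL-10, IL-4 and follicular programs, had 4 UMIs in 3 WT cells (31.4 CPM, 8.56 to 80.5) and 42 UMIs in 21 twi cells (193 CPM, 139 to 261), a ratio of 6.14 (2.23 to 23.6). Its level in twi CD4+ T cells was 6.73-fold (4.35 to 10.4) that of twi CD8+ T cells. *Gata3*, required by CD4+ T cells in general and by Th2 cells in particular, was at 102 CPM in WT and 129 CPM in twi (ratio 1.26, 0.632 to 2.65). *Tbx21*, the Th1 factor T-bet, had 0 UMIs in WT and 9 in twi, 1.76-fold over the floor. *Bcl6*, the factor of follicular helper cells, had 0 UMIs in WT and 1 in twi.

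Helper ligands and cytokines summed to 872 and 1343 CPM (ratio 1.54, 1.23 to 1.93) but were mostly too sparse to compare: 3 of 22 reached the minimum, 2 of them with fewer than 20 UMIs in WT, and 1 passed 2-fold, *Tgfb1*, with 8 UMIs in WT against 30 in twi. *Ltb*, lymphotoxin beta, was the most abundant, at 637 CPM in WT and 842 CPM in twi (ratio 1.32, 1.01 to 1.74). *Cd40lg* was at 86.4 CPM in 8 of 42 WT cells and 96.6 CPM in 14 of 69 twi cells, a ratio of 1.12 (0.515 to 2.57). *Ifng*, the Th1 cytokine, had 0 UMIs in WT and 14 in 10 twi cells, and *Il2*, the T cell growth factor, 0 in WT and 11 in 9 twi cells, 2.73-fold and 2.15-fold over the floor. *Il4* (7 UMIs) and *Il17a* (5 UMIs) were each seen in 1 twi cell, *Il10* (3 UMIs) in 1 WT cell, *Tnf* in 1 WT and 5 twi cells, and *Il21* in none. The 22 cytokine and chemokine receptors summed to 1053 CPM in WT and 1393 CPM in twi (ratio 1.32, 1.08 to 1.63), with 14 higher and 8 lower. Of 7 past the minimum (3 higher and 4 lower, median log2 ratio -0.05), 5 had fewer than 20 UMIs in WT and 3 in twi, and *Cxcr3* and *Ifngr1* were at least 2-fold higher and *Il6ra* lower. *Ifngr1*, an IFN-gamma receptor chain, was at 236 CPM in WT and 533 CPM in twi (ratio 2.26, 1.5 to 3.5), and *Il6ra*, an IL-6 receptor chain, was at 244 and 92.0 CPM (ratio 0.378, 0.204 to 0.684).

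**Figure D4:**
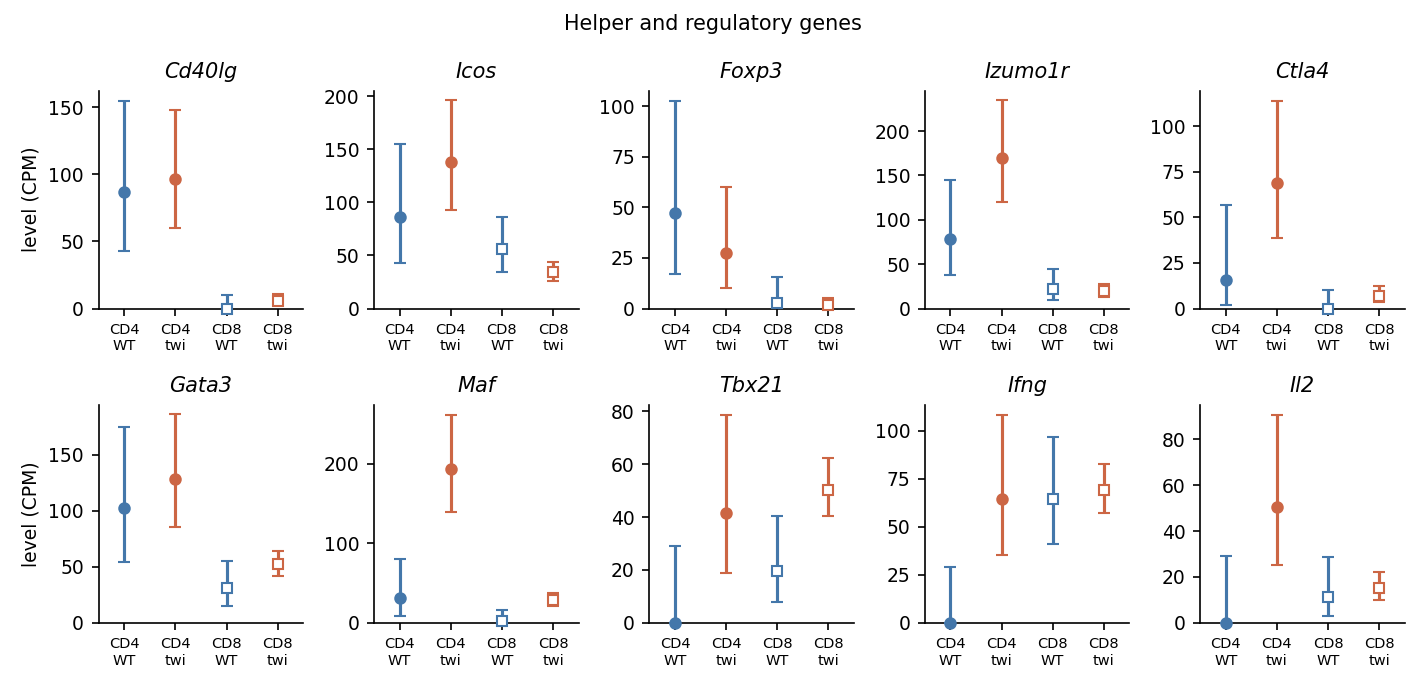
Levels (CPM of summed UMIs, with exact 95% Poisson intervals) of 10 helper and regulatory genes in CD4+ T cells (filled circles) and CD8+ T cells (open squares) of WT (blue) and twi (orange). *Cd40lg* and *Gata3* are higher in CD4+ than in CD8+ cells with close values in WT and twi, while *Maf*, *Ifng* and *Il2* are low or at 0 in WT CD4+ cells and higher in twi.

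The 24 activation and costimulation genes summed to 1658 CPM in WT and 2442 CPM in twi (ratio 1.47, 1.25 to 1.74). Of these, 9 were tested, 5 of them with fewer than 20 UMIs in WT, and 8 were higher, with a median log2 ratio of 0.39. *Rgs1*, a regulator of chemokine receptor signals, had 8 UMIs in 2 WT cells and 78 UMIs in 23 twi cells, and with *Il2rb*, an IL-2 receptor chain, it passed 2-fold. The immediate early gene *Egr1*, also induced by dissociation, was the 1 member at least 2-fold lower, with 13 and 9 UMIs. *Cd69*, the early activation antigen, had 23 and 52 UMIs (log2 ratio 0.39).

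*Foxp3* transcripts were seen in 3 CD4+ T cells of each library, 7.14% of WT cells (1.5 to 19.5) and 4.35% of twi cells (0.906 to 12.2), with 6 UMIs in each, a ratio of 0.609 (0.0815 to 4.54), a wide range. The ratio was 0 in thinned cells, in cells with a Y-linked transcript and no *Xist*, and with at least 2 *Cd4* UMIs, each with 1 WT cell and 0 twi cells. In these cells *Ikzf2*, encoding Helios, a factor of thymic regulatory T cells, had 11 UMIs in WT and 14 in twi, in 2 of the 3 cells each, and *Icos* was also seen in 2 of the 3 in both. The regulatory list summed to 888 CPM in WT and 1127 CPM in twi (ratio 1.27, 1.01 to 1.60), and 5 of its 22 genes reached the minimum, 3 higher and 2 lower, with a median log2 ratio of 0.40, or -1.57 over 2 genes in cells with a Y-linked transcript and no *Xist*. *Izumo1r*, the folate receptor 4 gene of regulatory and anergic CD4+ T cells, passed 2-fold, at 78.6 CPM in WT and 170 CPM in twi (ratio 2.17, 1.06 to 4.88), as did *Il2rb*, at 31.4 and 143 CPM, which this list shares with the activation list. The lower ones were *Ikzf2*, at 196 CPM in WT and 147 CPM in twi, and *Capg*, an actin-capping protein gene, at 157 and 110 CPM, and these 2 were the members with at least 20 UMIs in WT. *Ctla4*, the inhibitory receptor, had 2 UMIs in WT and 15 in twi, under the minimum. It was seen without *Foxp3* in 0 of 42 WT and 9 of 69 twi cells, and in 2 of the 3 WT *Foxp3* cells but none of the 3 twi ones.

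The 46 interferon-stimulated genes summed to 6161 CPM in WT and 9235 CPM in twi (ratio 1.5, 1.38 to 1.63). Of 22 past the minimum 21 were higher, 7 at least 2-fold, with a median log2 ratio of 0.66, but 14 of the 22 had fewer than 20 UMIs in WT, the 7 past 2-fold among them. The 8 with at least 20 UMIs in WT were all higher, by a median of 0.14. The median of the list was 0.36 at a minimum of 50 UMIs and 0.79 in cells with a Y-linked transcript and no *Xist*. The abundant ones were *Ifi27l2a*, at 982 CPM (818 to 1167) in WT and 1964 CPM (1782 to 2159) in twi, just under 2-fold with 0.5 UMI added, and *Shisa5* and *Ly6e*. The 7 past 2-fold were *Isg15*, a ubiquitin-like protein gene, the antiviral genes *Ifit1* and *Ifit3*, the nucleic acid sensor *Zbp1*, the guanylate-binding proteins *Gbp2* and *Gbp7*, and *Ly6a*, the Sca-1 antigen. *Ly6a* had 6 UMIs in 6 WT cells and 96 UMIs in 37 twi cells, a ratio of 9.36 (4.15 to 26.1). *Ifit3* had 2 UMIs in 1 WT cell and 32 in 12 twi cells, *Isg15* 8 UMIs in 5 and 37 in 14 cells, and *Zbp1* 9 UMIs in 8 and 41 in 22 cells. Genes of MHC class I presentation summed to 11654 CPM in WT and 14390 CPM in twi (ratio 1.23, 1.16 to 1.31), and 15 of 18 were higher, none 2-fold, with a median of 0.41; 5 of the 18 had fewer than 20 UMIs in WT. *H2-K1* was at 1815 and 2373 CPM (ratio 1.31, 1.12 to 1.53) and *B2m* at 3788 and 4585 CPM (1.21, 1.08 to 1.35). In CD8+ T cells the medians were 0.88 for the interferon list and 0.48 for class I.

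The promoters of the interferon-stimulated genes past 2-fold were read from RefSeq (GRCm38.p6) to describe where the element that interferon acts through lies in them. The pattern searched was GAAA, any 2 bases, then GAAA, on either strand, with overlapping matches counted; it is the core of the interferon-stimulated response element. It was present within 250 bases before the start in 978 of 32851 promoters (2.98%), in 19 of the 35 listed interferon genes with a promoter (54.3%) and in 1 of 14 naive genes. Among the listed interferon genes tested in CD4+ T cells, 9 of 16 with a promoter held the pattern (56.25%). The list was chosen as interferon-stimulated genes, so matches within it follow largely from that choice. Whether the pattern goes with a higher level in twi was not tested. Of the 7 genes past 2-fold, 5 had a promoter entry and all 5 held the pattern. The site nearest the start of each is shown on the gene's strand with the pattern in capitals; TTTC marks it on the opposite strand.
Isg15: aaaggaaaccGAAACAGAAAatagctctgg
Ifit1: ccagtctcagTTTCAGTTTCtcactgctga
Ifit3: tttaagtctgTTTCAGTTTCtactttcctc
Gbp2: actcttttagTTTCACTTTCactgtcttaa
Gbp7: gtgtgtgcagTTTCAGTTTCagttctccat
They lie at chr4:156200865-156200894 on the minus strand (*Isg15*, 56 bases before the start), chr19:34640794-34640823 (*Ifit1*, 75 bases), chr19:34583397-34583426 (*Ifit3*, 112 bases), chr3:142620594-142620623 (*Gbp2*, 49 bases) and chr3:142530273-142530302 (*Gbp7*, 43 bases), the last 4 on the plus strand. A match is a description of the letters and not of a bound site.

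**Figure D5:**
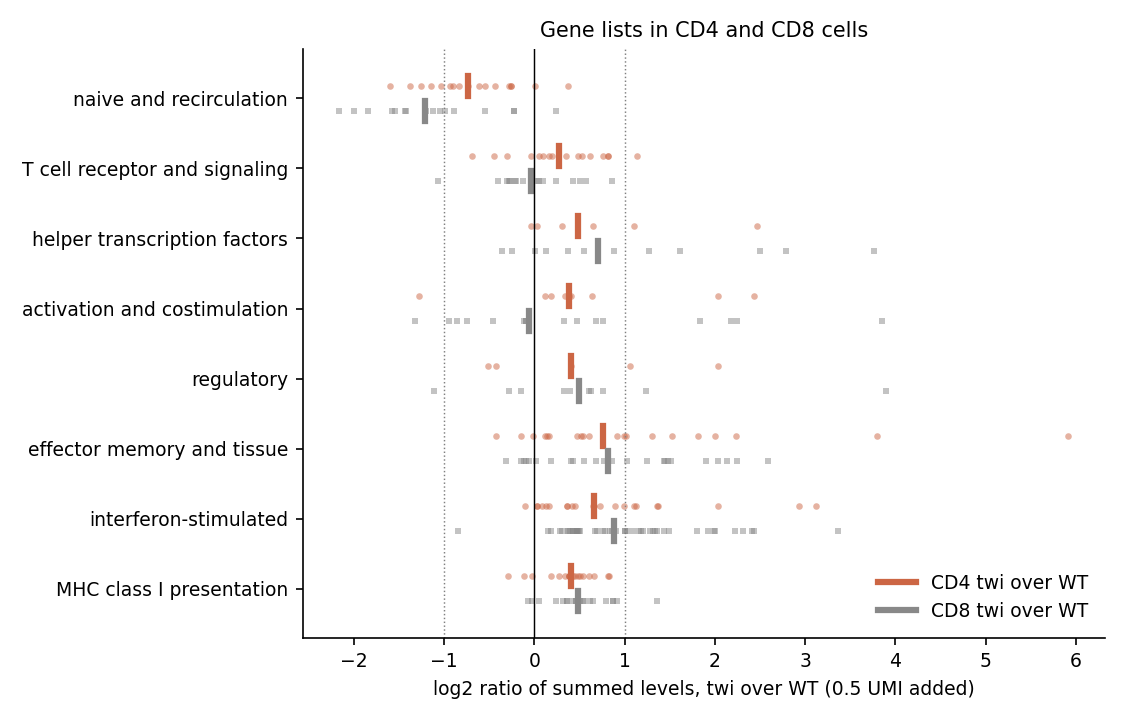
Each point is 1 gene of a list, at its log2 ratio of summed level in twi over WT (0.5 UMI added) in CD4+ T cells (orange circles) and CD8+ T cells (grey squares); thick bars are list medians and dotted lines mark 2-fold. The CD4+ bars lie left of 0 for the naive list (-0.73) and right of it for the effector memory (0.76) and interferon (0.66) lists; genes low in WT enter a list only through twi, and those with at least 20 UMIs in WT had medians of 0.16 and 0.14.

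Over all genes, listed or not, those with at least 25 UMIs in the higher library and a mean of at least 100 CPM were ranked by ratio. At the top were *Ccl5*, *Ly6c2*, *Ly6a*, *Nkg7* and *Xist*. At the bottom were *Igfbp4*, *Sepp1*, encoding the selenium carrier selenoprotein P (566 CPM in WT, 156 CPM in twi, ratio 0.276, 0.178 to 0.421), *Arhgap31*, a GTPase-activating protein (ratio 0.262, 0.125 to 0.521), the lipid flippase *Atp11b* (0.323, 0.164 to 0.614) and the uncharacterized *B930036N10Rik* (0.363, 0.190 to 0.677). *Sepp1* was seen in 30 of 42 WT and 23 of 69 twi cells and was 4.31-fold (2.94 to 6.36) and 2.45-fold (1.62 to 3.63) higher in CD4+ than in CD8+ T cells of WT and twi.

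Transcripts of other cells were present in the selected cells and some moved with genotype. The 12 monocyte and macrophage markers summed to 330 CPM in WT and 970 CPM in twi (ratio 2.94, 2.1 to 4.20), with 2 and 1 of them at 0; *Lyz2* was the most abundant in twi (67 UMIs), and 44 of these were in 1 cell, which also held 14 *Fcer1g* and 17 *Tyrobp* UMIs. The 12 NK and innate markers summed to 149 and 409 CPM (2.74, 1.66 to 4.77), with *Rora* and *Fcer1g* leading and 5 and 2 at 0. Erythroid genes, led by *Hbb-bs*, were at 1391 and 796 CPM (0.572, 0.461 to 0.709), and the neutrophil list, led by *Retnlg* and *Ngp* in WT and *Ngp* in twi, at 479 and 166 CPM (0.345, 0.222 to 0.530), with *Cxcr2* and *Cebpe* at 0 in both. Microglial markers were even, at 904 and 924 CPM, led by *Selplg*, which T cells also express, with *Cx3cr1*, *Sall1* and *Siglech* at 0 in both, as were brain markers at 204 and 189 CPM, led by *Pecam1*, with 6 of 8 genes at 0 in both, *Mog* and *Gfap* among them, and 8 and 19 UMIs of the myelin gene *Mbp*. The B cell list, led by *Cd74*, was at 220 and 124 CPM, with *Cd22* at 0 in both, and the dendritic list, led by *Bst2*, at 102 and 170 CPM, with 8 and 7 of its 10 genes at 0, *Xcr1* and *Clec9a* among them. The gamma-delta list was at 102 and 36.8 CPM, and 10 of its WT UMIs were *Cd163l1* in 1 cell. With cells of at least 5 UMIs of *Lyz2*, *Fcer1g* and *Tyrobp* left out, which removed 2 twi cells, the share ratio was 1.68 and the interferon median 0.66. The 18 stress genes that dissociation induces summed to 12283 CPM in WT and 10476 CPM in twi (ratio 0.853, 0.799 to 0.910). Their median log2 ratio was -0.25, with *Jun* at 1132 CPM in WT and 731 CPM in twi. The part of these transcripts in the other differences was not tested.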

How the data were processed

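CD45+ brain cells of 1 WT and 1 twi pool were captured with 10x Genomics 3′ chemistry. Per the submitters' processing notes, the authors made the deposited UMI counts with Cell Ranger 2.1.1 on mm10, which aligns with STAR; doublets were not removed here. No column outside the 2 libraries was used. Of 27998 gene rows, those that share a symbol were summed, which gave 27933 symbols; genes without a row were not analysed here. Cells with over 15% mitochondrial UMIs (7 WT, 13 twi) were left out.

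For each cell group of a library the UMIs were added up with Python 3.11.15, numpy 2.4.6, scipy 1.17.1 and pandas 2.3.3, scaled to CPM, and compared as log2 ratios with 0.5 UMI added for genes with at least 20 UMIs over both groups. The interval calculation was run on simulated Poisson counts over 2251 genes in 20 draws and held the true ratio for 95.3 to 97.6% of values. Such counts follow the model that the interval assumes and have no spread between cells. The run therefore checks the calculation only, and coverage in the real cells was not tested. PCR duplicates were collapsed by UMI by the authors. TMM factors (edgeR 4.0.16) served as an alternative scaling.

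The selection rule and 22 gene lists were chosen with earlier results of these data known. Named were marker genes of CD4+ T cells, up to 4 abundant and 2 most shifted genes per list, the 5 largest and smallest ratios, the 10 genes each way that most separated CD4+ from CD8+ T cells, helper cytokines and factors, and sex-linked genes. *Ccr7*, *Il7r*, *Itgb1*, *Id2*, *Cxcr6*, *Gzmb*, *Ctla4*, *Stat4*, *Capg* and *Egr1*, other-cell markers at 0, and the interferon genes *Isg15*, *Ifit1*, *Zbp1*, *Gbp2* and *Gbp7*, were named after their values were seen. A few genes that the rule names are not reported here.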

Additional observations from a re-analysis of the deposited data

Results flagged for a closer look

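*Tyrobp*, an adaptor of NK and myeloid receptors, had a twi over WT ratio of 7.32 in CD4+ T cells and 0.616 in CD8+ T cells; of its 25 UMIs in twi CD4+ T cells, 17 were in 1 cell. *Cd163l1*, a gene of gamma-delta T cells, had 10 UMIs in 1 WT CD4+ T cell and 0 in twi CD4+ T cells. In CD8+ T cells its twi over WT ratio was 7.49. The directions were opposite in CD4+ and CD8+ T cells for both genes. The CD4+ values rested mostly on 1 cell each, and the difference between the cell groups was not tested. Cells with CD3 transcripts and both *Cd4* and *Cd8* UMIs entered no comparison: there were 6 in WT (0.472% of cells) and 15 in twi (1.24%), with median depths of 1898 and 5683 UMIs.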

How the results depend on the processing

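No paired analysis was possible because the genotypes had 1 library each. Of 107 alternative values of the main results, 93 lay within the reported value's interval (counts within 1.5 times), 13 moved outside and 1 reversed. For list medians the interval joined the counting intervals of the middle genes. It was wide, at -0.43 to 1.34 for the regulatory list and -0.30 to 1.77 for the interferon list, so lying within it says little. Of 1210 values for 95 named genes, 1140 lay within the gene's interval, 65 moved and 5 reversed, and 55 had the other sign. Among the 93, the regulatory median turned to -0.01 over 2 genes at 50 UMIs, the effector memory median was 1.43 without cells of high UMI and 0.29 with at least 2 *Cd4* UMIs, and the interferon median was 0.36 at 50 UMIs. In cells with a Y-linked transcript and no *Xist*, the CD4+ share ratio was 0.974, 129 of 901 genes were past 2-fold, the regulatory median rested on few genes at -1.57, and *Itga6* (0.37) and *Ddx3y* (0.13) changed sign. With cells thinned before selection, 41 of 366 genes were past 2-fold, the naive median was -0.00149 over 8 genes, and the regulatory list had no value. The *Foxp3* share ratio was 0 in thinned cells, in Y-linked cells and with at least 2 *Cd4* UMIs, each with 1 WT cell and 0 twi cells. Against 221 of 2245 genes past 2-fold, there were 695 of 4094 at 10 UMIs, 37 of 836 at 50 UMIs, 76 of 688 with at least 2 *Cd4* UMIs and 117 of 1716 without the cells of at least 4 *Ccl5* UMIs. The 55 genes separating CD4+ from CD8+ T cells in both libraries numbered 16 of 1093 at 50 UMIs and 97 of 2293 with at least 2 *Cd4* UMIs. *Ms4a4b* (-0.15) and *Jun* (0.38) changed sign with at least 2 *Cd4* UMIs, and *Klf2* (0.12) without the *Ccl5* cells; these settings, and leaving out myeloid-marked cells, were chosen after seeing the data. The cause of these shifts was not tested, beyond the fewer cells and UMIs that each setting keeps. Genes under 20 UMIs are given by their UMIs, with wide intervals or lower bounds.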
